A study of Homo sapiens with 6 samples.

Results

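The epidermal growth factor receptor (EGFR) family, its ligands and the receptor MET were followed as 10 genes, chosen by gene symbol: the receptors EGFR, ERBB2 and ERBB3, the ligands AREG, EREG, HBEGF, TGFA and BTC, the receptor MET and the EGFR inhibitor ERRFI1. The deposited table listed 15897 genes and held 9 of the 10, and BTC was not listed. All 9 passed the filter on low values and were among 14068 genes tested. RNA-seq was done on 6 libraries labelled H1650, an established human lung adenocarcinoma cell line known for an activating mutation of EGFR. The control group held 3 libraries with the genotype label wild type, and the other group held 3 labelled shSETD2, a short hairpin RNA knockdown of the H3K36 methyltransferase SETD2. The study made stable lines with 3 hairpin constructs, and the labels do not say whether library numbers 1 to 3 stand for constructs or for repeats of 1 line. No source used here says that libraries of a group came from separate cultures, so p-values measure only the spread between these libraries, which may be technical.

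EGFR, ERBB2, ERBB3 and ERBB4 are receptor tyrosine kinases that signal as dimers, mainly through the RAS-ERK and PI3K-AKT pathways. EGFR binds TGFA, AREG, EREG, HBEGF and BTC, ERBB3 and ERBB4 bind neuregulins, and ERBB2 has no known ligand and acts as a partner of the others. These ligands are made as membrane-bound precursors that metalloproteases cut free, so a cell that makes both ligand and receptor can stimulate itself. MET is the receptor of hepatocyte growth factor, and ERRFI1 (also called MIG6) is a feedback inhibitor that binds the kinase domain of EGFR. EGFR signalling sustains alveolar and airway epithelium and drives many lung adenocarcinomas.

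Expression was given as FPKM, fragments scaled to transcript length and library size, which allows levels of different genes to be set side by side. The FPKM sums were between 218769 and 224603 in the 6 libraries. Correlation of libraries was taken across all listed genes (Pearson's r on log2(FPKM + 1), where genes do not count as replicates). It was 0.985 to 0.991 inside a group and 0.756 to 0.761 from group to group. SETD2 itself had 18.0, 10.2 and 17.6 FPKM in control libraries 1 to 3 and 8.97, 8.09 and 12.2 FPKM in shSETD2 libraries 1 to 3. These ranges overlapped, and the log2 fold change of -0.58 (SE 0.24) did not pass the threshold (adjusted p = 0.0641, limma). It passed without control library 2 (log2 fold change -0.83, adjusted p = 0.00648, limma) and without shSETD2 library 3 (-0.73, adjusted p = 0.0418, limma). Leaving out any other single library did not bring it past the threshold (adjusted p 0.149 to 0.179, limma). With median ratio scaling the log2 fold change of SETD2 was -0.25 (adjusted p = 0.376, limma). Libraries go by their labels throughout. SETD2 thus did not clearly separate the groups, and the identity of the libraries could not be checked here beyond their labels. The paper reports that its hairpin constructs lowered SETD2 to a similar degree in H1650 cells, with qPCR and western blots of SETD2. It does not tie these measurements to the libraries used here. An effect of SETD2 depletion cannot be told apart from any other difference between the cells of the groups, and each fold below compares the libraries as labelled. Of 10 lung epithelium markers, NKX2-1 was the only 1 listed, at 1.44 to 1.80 FPKM in control libraries and at 0 in every shSETD2 library. Of 10 general epithelium markers, 8 were listed, and their summed level was 14.2 to 16.2 FPKM in control and 402 to 455 FPKM in shSETD2 libraries. The keratins KRT7, KRT8 and KRT18 made up nearly all of the latter sum and rose, and CDH1, the only other one high enough to be tested, fell. The other listed ones were too low to be tested and went both ways. EPCAM had 0.582 to 0.830 FPKM in control and 0.166 to 0.301 FPKM in shSETD2 libraries. CLDN7 was also lower in shSETD2 libraries (mean 0.192 FPKM in control and 7.97e-06 FPKM in shSETD2). ESRP1 (mean 0.0176 and 0.803 FPKM) and CLDN4 (mean 0.0670 and 0.175 FPKM) were higher there. The 4 listed of 10 fibroblast markers summed to 4.04 to 4.54 FPKM in control and 0.292 to 0.340 FPKM in shSETD2 libraries. Of 6 endothelium markers 0 were listed, and the 2 listed of 6 leukocyte markers summed to 1.33 to 1.62 and 1.91 to 2.24 FPKM. These marker levels moved with the groups that every comparison here uses, and their part in the results was not tested.

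The promoter sequences of EREG and AREG are shown because these ligands were at or near 0 in the control libraries, that of EGFR because it was the most abundant ERBB receptor in the shSETD2 libraries, and that of HBEGF because it was the most abundant ligand in the control libraries. Each sequence is the 250 bases before the RefSeq transcription start, read 5′ to 3′ on the gene's strand, taken from a RefSeq table of build GRCh38.p14 and located in GRCh37 by exact match. Capitals mark a TATA box (TATAAA), a cAMP response element (TGACGTCA) or a GC box (GGGCGG), each searched on both strands, so that a GC box can read CCGCCC.
EREG, chr4:75230612-75230861, + strand: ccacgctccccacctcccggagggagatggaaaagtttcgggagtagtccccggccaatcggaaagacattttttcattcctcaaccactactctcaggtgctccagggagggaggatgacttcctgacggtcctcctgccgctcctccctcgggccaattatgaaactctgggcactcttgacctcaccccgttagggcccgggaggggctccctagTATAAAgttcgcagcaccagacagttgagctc
AREG, chr4:75310603-75310852, + strand: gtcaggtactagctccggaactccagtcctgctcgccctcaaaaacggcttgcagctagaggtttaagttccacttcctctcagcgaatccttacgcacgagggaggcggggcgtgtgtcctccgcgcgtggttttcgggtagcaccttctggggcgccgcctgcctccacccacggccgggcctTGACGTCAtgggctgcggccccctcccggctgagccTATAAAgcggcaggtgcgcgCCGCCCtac
EGFR, chr7:55086460-55086709, + strand: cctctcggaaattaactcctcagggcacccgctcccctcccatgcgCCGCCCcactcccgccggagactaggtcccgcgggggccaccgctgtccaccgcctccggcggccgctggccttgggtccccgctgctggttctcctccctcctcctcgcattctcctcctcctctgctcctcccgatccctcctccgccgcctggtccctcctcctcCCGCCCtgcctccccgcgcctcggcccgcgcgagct
HBEGF, chr5:139726189-139726438, - strand: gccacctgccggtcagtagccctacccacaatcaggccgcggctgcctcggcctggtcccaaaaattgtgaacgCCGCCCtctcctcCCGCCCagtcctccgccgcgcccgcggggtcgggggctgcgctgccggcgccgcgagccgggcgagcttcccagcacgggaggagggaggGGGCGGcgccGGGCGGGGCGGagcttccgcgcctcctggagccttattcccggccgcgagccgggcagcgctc
The TATA box of EREG began 32 bases before the start, and that of AREG 29 bases before it. The RefSeq table held 11 windows for 9 of the members, as EGFR and TGFA each have a second start. These 9 include BTC, which has no expression values here, and leave out ERBB3, which had no window. A TATA box was in 3 of the 11, those of EREG and AREG and the second of EGFR (not shown), against 10.7% of 35116 promoter windows of the same length. AREG also held a cAMP response element 65 bases before the start, a motif found in 1.65% of all windows. GC boxes were in 6 of the 11 windows (AREG, ERRFI1, HBEGF, MET and the first windows of EGFR and TGFA), against 42.6% of all windows. AP-1 sites (TGANTCA), ETS cores (CCGGAAGT), CArG boxes and the kappaB consensus were searched too, and the 4 printed windows held none of them. Of the 11 windows, 2 held AP-1 sites (ERBB2 and the second of EGFR), against 6.57% of all windows. An ETS core was in 1 (ERBB2), against 3.42%. The kappaB consensus was in 2 (BTC and the first of TGFA), against 9.96%, and a CArG box in 0, against 1.16%. HBEGF held 5 GC boxes, of which the last 2 in the printed sequence overlap. Its window was 76.4% G and C, against a median of 58.0% over all windows. The AREG window matched the genome a second time, at chr4:75480379-75480628, before the near-identical gene AREGB. A match describes letters only, and binding of a factor was not measured.

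Among the receptors, EGFR and ERBB3 rose in the shSETD2 libraries and ERBB2 differed little. EGFR (ENSG00000146648.17_3, GRCh37 chr7:55086714-55279321, + strand) had 4.15, 3.88 and 4.21 FPKM in control libraries 1 to 3 and 78.0, 78.3 and 76.7 FPKM in shSETD2 libraries 1 to 3. The groups lay far apart and each was narrow. Mean EGFR was 4.08 ± 0.178 FPKM (SD, n = 3) in control and 77.6 ± 0.846 FPKM (SD, n = 3) in shSETD2 libraries, a ratio of 19.0. The log2 fold change of EGFR, which on the log2(FPKM + 1) scale understates changes of low genes, was 3.95 (SE 0.042, 95% confidence interval 3.85 to 4.06, adjusted p = 1.13e-08 by limma).

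ERBB3 (ENSG00000065361.14_3, chr12:56473641-56497289, + strand), a receptor with little kinase activity of its own that signals through its partners, had 0.763, 1.06 and 0.799 FPKM in control and 5.93, 5.72 and 5.20 FPKM in shSETD2 libraries. All shSETD2 values lay above all control values. Its mean went from 0.874 ± 0.162 to 5.62 ± 0.374 FPKM (SD, n = 3 each), 6.43 times as much, with a log2 fold change of 1.82 (SE 0.083, adjusted p = 2.76e-06, limma).

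ERBB2 (ENSG00000141736.13_3, chr17:37844167-37886679, + strand) had 5.25, 5.50 and 5.61 FPKM in control and 7.33, 5.98 and 6.97 FPKM in shSETD2 libraries. The groups did not overlap, but shSETD2 library 2 lay only just above the control values. The log2 fold change of 0.26 (SE 0.077, 95% confidence interval 0.08 to 0.45) passed the threshold (adjusted p = 0.0184, limma). That call was lost without control library 1 or without shSETD2 library 3 (adjusted p = 0.0588 each) and without shSETD2 library 1 (adjusted p = 0.0560). PGAP3 and MIEN1 overlap ERBB2 on the opposite strand, and whether the authors counted fragments by strand is not given in the sources used here. PGAP3, a lipid remodelling enzyme of membrane anchors, had 1.81, 1.61 and 1.43 FPKM in control and 2.53, 2.10 and 2.24 FPKM in shSETD2 libraries (log2 fold change 0.33, adjusted p = 0.00867, limma). MIEN1 had 3.33, 8.06 and 3.98 FPKM in control and 4.23, 3.87 and 3.89 FPKM in shSETD2 libraries and did not pass (adjusted p = 0.481, limma).

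The make-up of the receptor pool differed between the groups. The summed FPKM of EGFR, ERBB2, ERBB3 and ERBB4 was 11.4 ± 0.153 in control and 90.2 ± 1.14 in shSETD2 libraries (SD, n = 3 each). EGFR took 36.8%, 33.8% and 36.3% of that sum in control libraries 1 to 3 and 85.3%, 86.8% and 86.0% in shSETD2 libraries 1 to 3. The mean share of ERBB2 was 47.6% in control and 7.49% in shSETD2 libraries, and that of ERBB3 was 7.63% and 6.22%. EGFR per ERBB2 was 0.79, 0.705 and 0.75 in control and 10.6, 13.1 and 11 in shSETD2 libraries. In bulk RNA, more cells that express a gene and more of its RNA per cell cannot be told apart.

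**Figure D1:**
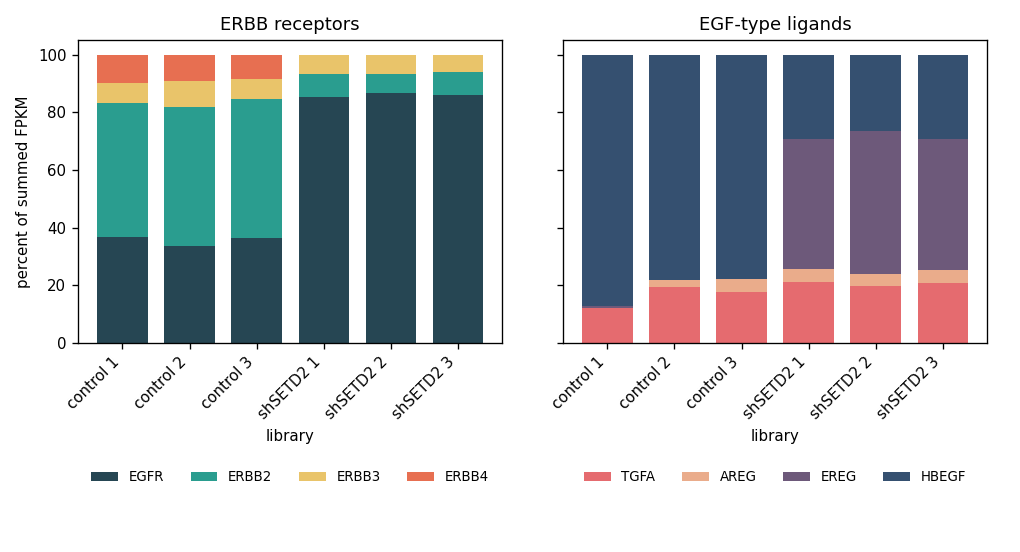
Stacked bars give the percent of summed FPKM taken by each ERBB receptor (left) and each EGF-type ligand (right) in each of the 6 libraries. EGFR took 33.8% to 36.8% of the receptor sum in control and 85.3% to 86.8% in shSETD2 libraries, and the mean share of HBEGF in the ligand sum was 81.1% in control and 28.3% in shSETD2 libraries.

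All 4 listed EGFR ligands rose in the shSETD2 libraries, from levels of at most 2.23 FPKM. EREG, epiregulin (ENSG00000124882.3_2, chr4:75230860-75254468, + strand), had 0.0189, 0 and 0 FPKM in control and 59.9, 72.9 and 60.9 FPKM in shSETD2 libraries. Of the ligands it had the widest spread among shSETD2 libraries (64.5 ± 7.27 FPKM, SD, n = 3), with library 2 above the others. The log2 fold change of EREG was 6.02 (SE 0.083, adjusted p = 2.89e-08, limma). As 2 of its control libraries were listed at 0, this value depends on the pseudocount of 1, and it was 12.14 with a pseudocount of 0.01.

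TGFA, transforming growth factor alpha (ENSG00000163235.15_3, chr2:70674412-70781325, - strand), had 0.308, 0.483 and 0.367 FPKM in control and 28.2, 29.3 and 28.0 FPKM in shSETD2 libraries. Its log2 fold change was 4.41 (SE 0.063, adjusted p = 3.04e-08, limma), and the ratio of means was 73.8. The intronic transcript TGFA-IT1, which lies inside this locus, was listed at 0 in every control library and at 0.625, 0.776 and 0.448 FPKM in shSETD2 libraries, and it was too low to be tested.

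HBEGF, heparin-binding EGF-like growth factor (ENSG00000113070.7_2, chr5:139712428-139726216, - strand), had the highest control level of the ligands at 2.23, 1.95 and 1.63 FPKM, and 38.8, 38.9 and 39.1 FPKM in shSETD2 libraries. The shSETD2 values lay close together, with an SD of 0.129 FPKM. Mean HBEGF was 20.1 times higher in shSETD2 than in control libraries, and its log2 fold change was 3.77 (SE 0.079, adjusted p = 1.08e-07, limma).

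AREG, amphiregulin (ENSG00000109321.10_2, chr4:75310851-75320726, + strand), had 0, 0.0559 and 0.0935 FPKM in control and 6.10, 6.03 and 5.94 FPKM in shSETD2 libraries. The log2 fold change was 2.74 (SE 0.058, adjusted p = 1.08e-07, limma), and it was 7.21 with a pseudocount of 0.01. Its value is uncertain because fragments can fall on AREGB, a near copy at chr4:75480629-75490486 that was listed as a gene of its own. Of the 1639 stretches of 50 bases in AREG transcripts, 1541 (94.0%) were also in AREGB transcripts. AREGB had 0.0457, 0.0849 and 0 FPKM in control and 4.69, 5.01 and 4.40 FPKM in shSETD2 libraries, a log2 fold change of 2.45 (adjusted p = 3.02e-07, limma). The sum of both was 0.0457, 0.141 and 0.0935 FPKM in control and 10.8, 11 and 10.3 FPKM in shSETD2 libraries.

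Summed over AREG, EREG, HBEGF and TGFA, ligand RNA was 2.56, 2.49 and 2.09 FPKM in control and 133.0, 147.2 and 133.9 FPKM in shSETD2 libraries. HBEGF made up 81.1% of the sum in control libraries on average. In shSETD2 libraries EREG was the largest component at 46.7%, ahead of HBEGF (28.3%), TGFA (20.7%) and AREG (4.37%). AREGB was not part of this sum, so the share of AREG leaves out fragments assigned to AREGB.

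MET and ERRFI1 also rose. MET (ENSG00000105976.14_3, chr7:116312444-116438440, + strand) had 6.95, 7.80 and 6.92 FPKM in control and 50.7, 54.9 and 53.6 FPKM in shSETD2 libraries. Its mean went from 7.22 ± 0.497 to 53.1 ± 2.15 FPKM (SD, n = 3 each), 7.35 times as much, and the log2 fold change was 2.72 (SE 0.059, adjusted p = 1.20e-07, limma). ERRFI1 (ENSG00000116285.12_2, chr1:8064464-8086368, - strand) had 7.32, 6.53 and 7.52 FPKM in control and 123, 123 and 132 FPKM in shSETD2 libraries. The ratio of its means was 17.7, beside 19.0 for its target EGFR, and its log2 fold change was 3.97 (SE 0.060, adjusted p = 3.88e-08, limma).

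**Figure D2:**
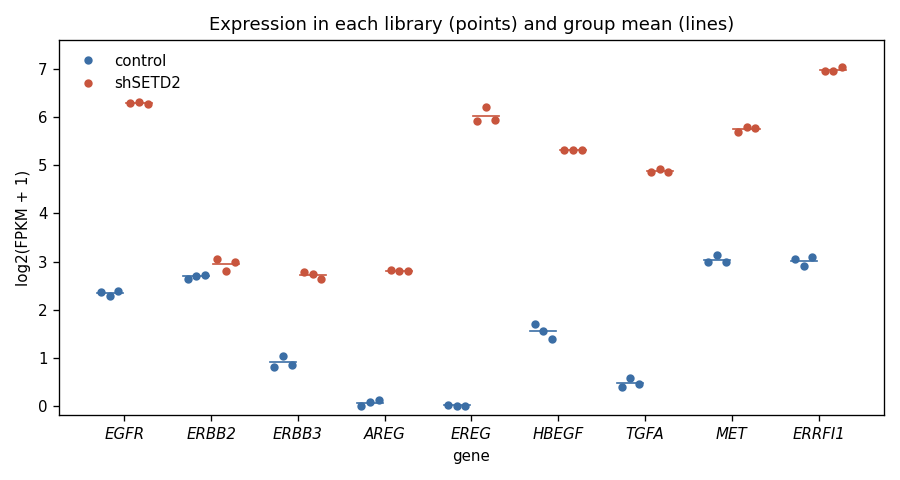
Points give log2(FPKM + 1) of the 9 listed members in each of the 6 libraries, blue for control and red for shSETD2, and short lines give the mean of the 3 libraries. All red points lie above the blue points of the same gene, by the least for ERBB2 (5.25 to 5.61 against 5.98 to 7.33 FPKM).

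Of the 9 listed members, 3 (AREG, EREG and TGFA) had control means under the minimum of 0.5 FPKM and were tested only because they were high in shSETD2 libraries, so the tallies that follow describe the members and are not support for a direction. The other 6 had control means over the minimum and were all called higher, with log2 fold changes from 0.26 for ERBB2 to 3.97 for ERRFI1. With the 3 ligands, 9 of 9 were called higher, against 26.8% of the 14068 genes tested. Genes called in either direction made up 78.6% of those tested, and 51.8% were called lower, so a call by itself was common in this comparison. With median ratio scaling, 5338 genes were called higher and 5272 lower, against 3774 and 7283 with FPKM as deposited. For all 9 members every shSETD2 value lay above every control value, which held for 27.9% of genes tested. An exact permutation test of each member gave p = 0.1 (two-sided), the smallest value that 3 against 3 libraries allow. The median log2 fold change of the 9 members was 3.77, against -0.29 over all genes tested. Of the 9, EGFR, EREG, HBEGF, TGFA and ERRFI1 had a log2 fold change over 3, as did 2.02% of genes tested.

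**Figure D3:**
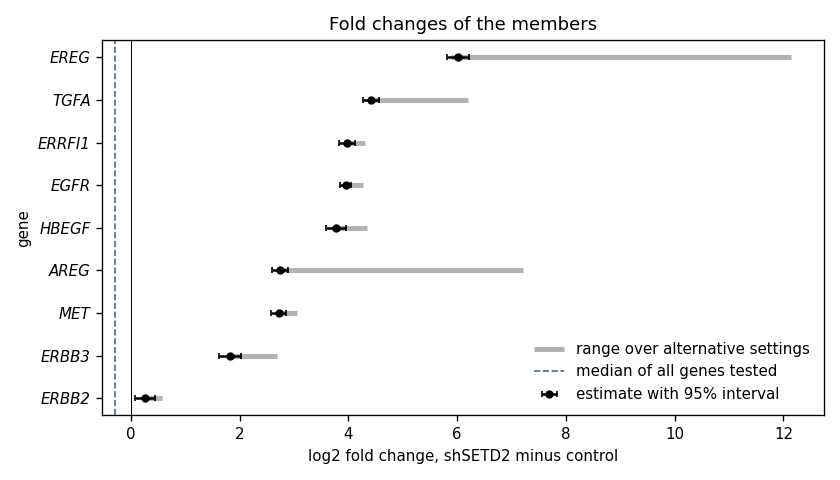
Black points give the log2 fold change (shSETD2 minus control, on the log2(FPKM + 1) scale) of each listed member, black bars its 95% confidence interval from limma, grey bars the range over the alternative settings, and the dashed line the median of all genes tested (-0.29). EREG (6.02) lies highest and ERBB2 (0.26) lowest, and the grey bars of EREG and AREG reach 12.14 and 7.21, their values with a pseudocount of 0.01.

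The order of the levels changed as well. In control libraries MET and ERRFI1 were highest, with overlapping values, followed by ERBB2, EGFR, HBEGF, ERBB3 and TGFA, and AREG and EREG were last with overlapping values. The shSETD2 libraries ran from ERRFI1 down through EGFR, EREG, MET, HBEGF and TGFA to ERBB2, AREG and ERBB3, where ERBB2 and AREG overlapped. By mean FPKM, EGFR lay above 42.5% of all genes tested in control and above 97.7% in shSETD2 libraries. For ERRFI1 these percentiles were 61.0% and 98.8%, for MET 61.5% and 96.3%, and for ERBB2 52.3% and 62.5%. By Euclidean distance over the 6 centred log2(FPKM + 1) values, the genes nearest to EGFR among 14067 included AC109326.1 (0.111), ARHGEF35 (0.111), ERRFI1 (0.122) and ANGPTL4 (0.145). These genes share with EGFR the size of the difference between the groups, which sets most of this distance.

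Around the members, other genes rose and fell, and their counts are read beside the 26.8% higher and 51.8% lower of all genes tested. Within 1 Mb of EGFR, 10 other genes were tested, of which 3 rose and 3 fell, and they covered -0.36 to 0.86 in log2 fold change (median -0.07). Chromosome 7 as a whole, which also holds MET, had 179 genes higher and 322 lower of 659 tested, with a median of -0.25. Within 1 Mb of MET 5 of 7 genes rose and 2 fell, and around ERRFI1 4 of 9 rose and 3 fell. Near HBEGF 8 of 25 tested genes rose and 10 fell, near TGFA 8 of 27 rose and 16 fell, near ERBB2 15 of 36 rose and 14 fell, and near ERBB3 17 of 50 rose and 16 fell.

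EREG and AREG lie 80.0 kb apart on chromosome 4, next to a group of chemokine genes. Of the 9 other genes tested within 1 Mb of EREG, 6 rose and 3 fell (median log2 fold change 2.45). CXCL1, a neutrophil attractant, rose from 0.0890 to 365 FPKM in group means (log2 fold change 8.39), and CXCL8, which acts on the same cells, rose from 0.256 to 238 FPKM (7.57). MTHFD2L, a folate enzyme gene between CXCL2 and EREG, was lower at 1.24 than at 1.77 FPKM (log2 fold change -0.30, adjusted p = 0.00800, limma), and PARM1, beyond AREGB, fell from 5.67 to 0.144 FPKM (-2.54). The chemokine genes, MTHFD2L and PARM1 were picked for their position, after their values were seen. CXCL1, CXCL3, CXCL6, CXCL8 and AREGB had control means under 0.5 FPKM and were tested only through their shSETD2 levels. PARM1 was tested only through its control level. The count and median around EREG therefore describe these genes and are not support for a direction.

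**Figure D4:**
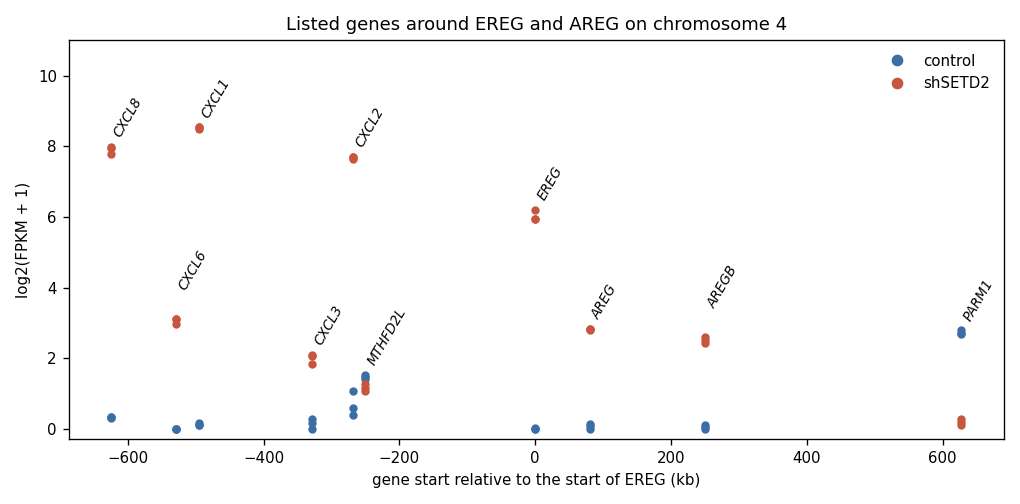
Points give log2(FPKM + 1) in each of the 6 libraries, blue for control and red for shSETD2, against the distance in kb of a gene's start from that of EREG. Red points lie above blue ones for the CXCL genes, EREG, AREG and AREGB, and below them for MTHFD2L and, at the right, PARM1. The span drawn is narrower than 1 Mb on each side of EREG.

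Other genes of the ERBB family moved in both directions. ERBB4 fell from 1.04 ± 0.078 to 0.208 ± 0.0469 FPKM (log2 fold change -0.76, adjusted p = 4.04e-05, limma). NRG1, a ligand of ERBB3 and ERBB4, rose from 0.0318, 0.00403 and 0.00430 FPKM to 15.6, 15.2 and 17.7 FPKM (log2 fold change 4.08, adjusted p = 5.62e-08, limma). NRG2 rose from a mean of 0.881 to 3.27 FPKM (1.18, adjusted p = 3.18e-05, limma). NRG4 had a mean of 0.405 FPKM in control and was listed at 0 in every shSETD2 library, and EGF, EPGN and NRG3 were not listed. NRG1 was tested only through its shSETD2 level and ERBB4 only through its control level.

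Of 8 genes for ligand release, 7 were tested, 4 rose, 1 fell and 2 did not pass. Their median log2 fold change was 0.26, where 26.8% of all genes tested were higher and 51.8% lower. With median ratio scaling 6 of them were higher and 1 lower, so this balance also depends on the scaling. RHBDF2, a partner of the protease ADAM17, rose from 1.81 to 9.02 FPKM (1.83, adjusted p = 2.73e-05, limma). ADAM17, the main sheddase of several EGFR ligands, fell from 12.7 to 7.39 FPKM (-0.71, adjusted p = 1.19e-04, limma). Of 10 genes around MET, 6 were listed and 5 tested, of which 4 rose and 1 fell (median 1.56), with MST1R tested only through its shSETD2 level and MST1 only through its control level. MST1R, the receptor most like MET, rose from 0.2 to 17.8 FPKM (3.97), its ligand MST1 fell from 1.38 to 0.211 FPKM (-0.97), and HGF, the ligand of MET, was not listed.

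Genes that carry the signal on from the receptors or end it were called in both directions, as were all genes tested (26.8% higher and 51.8% lower). Of 15 adaptors and proximal enzymes 4 rose and 6 fell (median log2 fold change -0.34). SHC1, an adaptor that binds phosphorylated EGFR, rose from 7.09 ± 0.306 to 153 ± 4.83 FPKM (4.25, adjusted p = 1.13e-08, limma), and CRKL fell from 45.7 to 19.3 FPKM (-1.25, adjusted p = 0.00248, limma). Of 17 tested genes for receptor down-regulation and trafficking 7 rose and 8 fell (median -0.17), led by SH3KBP1 (1.66), which helps to take up EGFR, and LRIG2 (-1.42). In the RAS-ERK core 5 of 13 genes rose and 4 fell (median 0.07), with HRAS rising most (1.24, adjusted p = 2.93e-04, limma) and MAPK3, which encodes ERK1, falling most (-0.73, adjusted p = 4.24e-05, limma). With median ratio scaling, which brings the median of all genes from -0.29 to 0.00, 10 genes of this core were higher and 1 lower. The adaptors were then 6 higher and 3 lower and the trafficking genes 8 higher and 4 lower, so the balance of all 3 lists depends on the scaling.

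Of 17 genes whose transcription is known to follow ERK activity, 16 were tested, 14 rose and 2 fell, beside 26.8% higher and 51.8% lower of all genes tested. Their median log2 fold change was 3.88, and 10 of the 16 were over 3, beside 2.02% of all genes. The filter fixed the direction of 6 of them. DUSP6, SPRY4, ETV4 and ETV5 were tested only through their shSETD2 levels, and SPRY1 and EPHA4 only through their control levels. Of the 12 with control means of at least 0.5 FPKM, 10 rose, and the 2 that fell were SPRY1 and EPHA4. The counts and the median over all 16 therefore describe these genes and are not support for a direction. DUSP4, at 0.520 FPKM in control and 0.155 FPKM in shSETD2 libraries, was too low to be tested. IER3, an early response gene, rose from 5.79 to 739 FPKM (log2 fold change 6.78, adjusted p = 6.50e-08, limma), and EPHA4 fell from 4.61 to 0.2 FPKM (-2.22, adjusted p = 4.90e-07, limma). These are RNA levels, and phosphorylation of ERK or of a receptor was not measured in these libraries. In separate western blots, the paper reports more phosphorylated ERK after SETD2 silencing in cell lines that include H1650. The relation of those blots to these RNA levels was not tested.

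**Figure D5:**
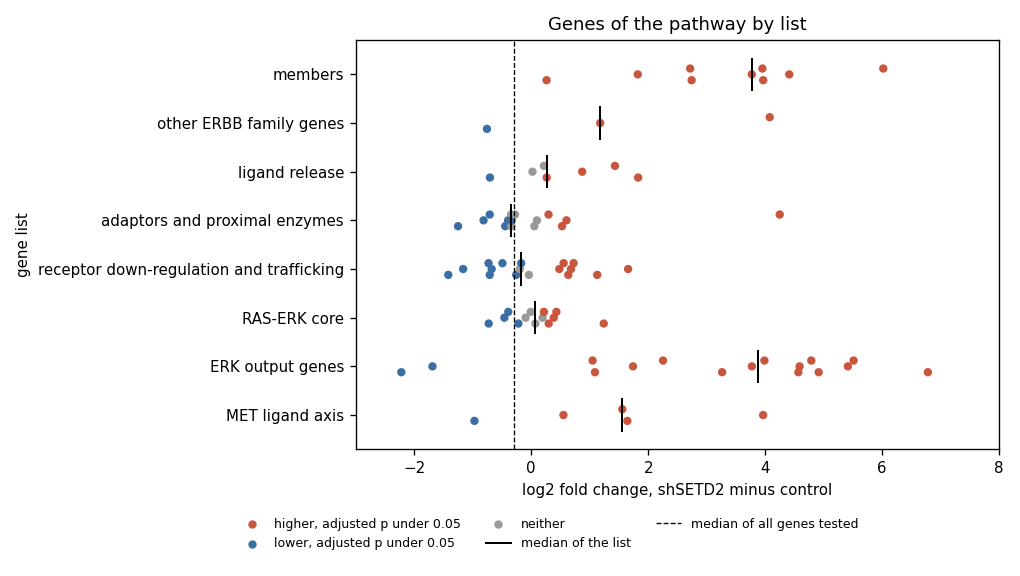
Each point is the log2 fold change of 1 tested gene, with 1 row for the members and 1 for each list of pathway genes, coloured by call, with the list median as a bar and the median of all genes tested (-0.29) as a dashed line. Medians run from -0.34 for adaptors and proximal enzymes to 3.88 for ERK output genes. Where a row holds genes tested only through 1 group, as for the members and the ERK output genes, its median is not support for a direction.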

How the data were processed

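The authors mapped reads of total RNA libraries with HISAT2 to hg19 (GRCh37), used Ballgown to quantify genes and deposited FPKM per gene and library. Versions, strand setting and the filter behind the 15897 listed genes are not given in the sources used here. A second table holds the authors' own comparison (group means, fold changes, p- and q-values) and was not used. Whole reads could not be recovered from the low FPKM values, so the depth is unknown and precision rests on 3 libraries per group.

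Genes with a mean of at least 0.5 FPKM (14068) were tested on log2(FPKM + 1) with limma 3.58.1 in R 4.3.3 (lmFit, eBayes with trend), shSETD2 against control, with Benjamini-Hochberg adjustment over all genes tested and a threshold of 0.05. The fit was tested on simulated data. Promoters are RefSeq windows of 250 bases, and shared stretches come from the GRCh37 annotation. Python 3.11.15, pandas 2.3.3, scipy 1.17.1 and matplotlib 3.10.9 made the tables and figures.

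The members and lists were chosen with earlier results of these data known. Besides all members, SETD2 and the ERBB relatives, the text names the largest called rise and fall of each list, the 5 genes nearest to EGFR (of which 1 is not reported here), and genes that overlap a member, with exceptions stated. Alternatives were pseudocounts of 0.1 and 0.01, no filter or a mean of at least 5 FPKM, scaling by median ratio, quantiles or the upper quartile, no trend, an ordinary linear model, the replicate number as a block, and each library left out in turn.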

Additional observations from a re-analysis of the deposited data

How the results depend on the processing

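All listed members that were tested stayed higher in shSETD2 libraries under every alternative, and ERBB2 was the only member whose call was lost (log2 fold change 0.21 to 0.57, adjusted p 6.55e-04 to 0.0588, limma). EGFR ranged from 3.92 to 4.27. A minimum mean of 5 FPKM left 5647 genes called, 2401 of them higher, and took AREG and ERBB3 out of the test. Of the calls, 34.1% were higher with FPKM as deposited, 44.5% with quantile normalization and 50.3% with median ratio scaling, which gave 5338 higher and 5272 lower. Median ratio scaling also put 6 adaptors higher and 3 lower (4 and 6 before) and 8 trafficking genes higher and 4 lower (7 and 8 before), and quantile normalization put the EGFR share of receptors in shSETD2 libraries at 84.1%.

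Libraries with the same number did not deviate together (correlations -0.0237, 0.0177 and -0.00766). No pairing by number was seen, but with so few libraries this check cannot exclude one. With a replicate block, 10976 genes were called against 11057, with 9 members among them, and SETD2 passed the threshold (adjusted p = 0.0156, limma). Depth is unknown, so values near 0 cannot be given a counting limit.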
